A study of Homo sapiens with 32 samples.

Results

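The neurotrophin family was examined in SK-N-BE(2)C, an established human neuroblastoma cell line, as the H3K27ac around 5 genes: the ligands BDNF and NTF3 and the receptors NTRK2, NTRK3 and NGFR. H3K27ac, acetylation of lysine 27 on histone H3, marks active promoters and enhancers and was measured by chromatin immunoprecipitation and sequencing (ChIP-seq). A region of the deposited consensus set belonged to a gene when the nearest protein-coding start site within 100 kb was that gene's, or when the region overlapped the body of one of the 5 genes. By this rule 21 of 92108 regions belonged to the family: 10 to BDNF, 6 to NGFR, 4 to NTRK3, 1 to NTRK2 and 0 to NTF3. Cells were kept for 5 days in PB + RA (1 µM palbociclib, PB, a CDK4/6 inhibitor, with retinoic acid, RA), in RA alone, in 1 µM PB alone, or in DMSO, the vehicle, with 4 ChIP libraries in each group. The samples are 1 cell line with no genetic change between groups, and the study's methods describe biological replicates as cells of different passage plated in independent experiments. The question addressed was how the drugs, alone and together, altered the H3K27ac around these genes.

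Neurotrophins are secreted growth factors that keep developing sympathetic and sensory neurons alive and promote the growth of their processes. BDNF acts mainly through the receptor tyrosine kinase TrkB, encoded by NTRK2, and NT-3, the product of NTF3, mainly through TrkC, encoded by NTRK3. NGFR encodes p75NTR, a receptor without kinase activity that binds every member of the ligand family and is a classical marker of the neural crest, the embryonic source of sympathetic neurons. BDNF is transcribed from several alternative promoters, each with its own 5′ exon spliced to a shared coding exon, so that its promoters can be used separately.

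The stretches of DNA on which the findings turn are given here, on the strand of each gene and from 5′ to 3′, read from the GRCh37 reference, which is the hg19 build of the deposited regions. The first 3 are the 250 bases before a BDNF start site in each of the 3 regions that cover one, shown because these promoters of 1 gene gave different values. Their names, upstream, central and downstream, give the order of these 3 only. BDNF promoters with start sites at chr11:27743577 and chr11:27742326 lie further 5′ and in no deposited region. The other 2 are the central 300 bases of an NTRK3 intron region called higher in both groups given PB, and of a region upstream of NGFR called higher in both groups given RA. Capitals mark matches to fixed words on either strand.
BDNF upstream promoter, chr11:27741295-27741544, minus strand: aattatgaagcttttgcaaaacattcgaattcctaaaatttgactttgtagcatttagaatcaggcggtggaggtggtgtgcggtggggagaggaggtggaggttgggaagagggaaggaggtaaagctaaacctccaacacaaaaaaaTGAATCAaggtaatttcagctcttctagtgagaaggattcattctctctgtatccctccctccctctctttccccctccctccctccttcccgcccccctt
BDNF central promoter, chr11:27721215-27721464, minus strand: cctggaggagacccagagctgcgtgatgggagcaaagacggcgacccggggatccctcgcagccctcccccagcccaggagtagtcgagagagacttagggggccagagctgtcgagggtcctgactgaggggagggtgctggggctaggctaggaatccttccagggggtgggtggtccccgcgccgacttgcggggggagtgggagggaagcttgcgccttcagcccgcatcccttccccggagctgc
BDNF downstream promoter, chr11:27681206-27681455, minus strand: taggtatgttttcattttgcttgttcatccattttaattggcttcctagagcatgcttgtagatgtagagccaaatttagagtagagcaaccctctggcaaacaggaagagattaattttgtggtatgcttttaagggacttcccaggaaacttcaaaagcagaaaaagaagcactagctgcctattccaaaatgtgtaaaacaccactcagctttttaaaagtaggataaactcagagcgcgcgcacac
NTRK3 intron, chr15:88735771-88736070, minus strand: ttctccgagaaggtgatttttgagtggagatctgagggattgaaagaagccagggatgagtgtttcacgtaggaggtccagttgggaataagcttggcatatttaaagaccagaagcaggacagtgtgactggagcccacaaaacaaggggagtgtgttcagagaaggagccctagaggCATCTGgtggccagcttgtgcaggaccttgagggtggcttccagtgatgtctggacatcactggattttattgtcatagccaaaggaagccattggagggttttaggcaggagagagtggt
NGFR upstream region, chr17:47548332-47548631, plus strand: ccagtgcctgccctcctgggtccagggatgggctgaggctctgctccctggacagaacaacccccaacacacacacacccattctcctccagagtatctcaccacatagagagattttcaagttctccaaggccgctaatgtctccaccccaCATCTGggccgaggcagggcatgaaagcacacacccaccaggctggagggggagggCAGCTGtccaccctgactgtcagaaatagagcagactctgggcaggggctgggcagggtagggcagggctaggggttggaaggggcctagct

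The words searched were the cAMP response element TGACGTCA, the retinoid receptor half-site AGGTCA, the retinoid direct repeat DR5, the E-box CACGTG, an E-box of the form CAGCTG and its variant CATCTG, the E2F words TTTCGCGC, TTTGGCGC and TTTCCCGC, the AP-1 word TGANTCA and the GATA word AGATAA, where 2 half-sites may overlap a DR5. The BDNF central and downstream stretches held none of these words. The upstream stretch held 1 AP-1 match, a word found in 6.57% of 35116 RefSeq promoters (GRCh38) of the same length. The central stretch was GC-rich, with 68.4% GC and 14 CpG dinucleotides, against 47.2% and 4 CpG in the upstream and 39.6% and 3 CpG in the downstream stretch. Another promoter in the central region, with its start site at chr11:27723168, has 46.8% GC and 11 CpG. It holds a CATCTG, found in 12.2% of RefSeq promoters. The NTRK3 stretch held 1 CATCTG and the NGFR stretch 1 CATCTG and 1 CAGCTG, words present in 22.3% and 18.3% of the central 300 bases of 90222 deposited regions. No stretch held a retinoid half-site, which 18.8% of those regions do. The NTRK3 stretch lay wholly under a peak in 4 PB + RA, 0 RA, 3 PB and 1 DMSO libraries, and the NGFR stretch in 4 PB + RA, 4 RA, 2 PB and 1 DMSO libraries. The BDNF upstream stretch did so in only 3 PB + RA, 2 RA, 1 PB and 1 DMSO libraries. For the central stretch it was 3 PB + RA, 3 RA, 3 PB and 4 DMSO libraries, and for the downstream stretch 3, 1, 4 and 4.

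Values per library are peak enrichments: the authors' fold enrichment of each peak over input, averaged over the bases of a region, with bases under no peak set to 1, so that 1 means no peak. Differences are on the log2 scale, with their standard errors (SE), and a region was called at an adjusted p under 0.05 in limma (Benjamini-Hochberg over all 92108 regions) and a log2 difference beyond 0.5. A gene's value is the mean log2 enrichment over its regions, tested likewise over 15005 genes. The lists hold 64516 to 104392 peaks per library and cover 50.2% to 68.8% of the regions, while read depth is unknown here. Start sites of 7 of 8 adrenergic neuroblastoma markers lay under a peak in all 16 libraries, as did those of 4 of 6 mesenchymal, 2 of 5 Schwann and glial, 1 of 4 immune (CD68) and 0 of 3 endothelial markers. The other 3 immune markers and 1 each of the mesenchymal and endothelial markers had no start site peak in any library. Replicates 1 and 2 stood apart from 3 and 4, with a median correlation of deviations of 0.12 within these 2 sets and -0.13 across them, so differences within replicates 1 and 2 and within 3 and 4 are given beside the main results. The median difference over all genes was -0.03 with PB + RA, 0 with RA and -0.16 with PB, and the values of single genes are to be read against it.

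H3K27ac at BDNF was lower after every treatment. The gene value was 1.14, 0.82, 0.99 and 1.11 in the PB + RA libraries, 0.84, 0.76, 0.95 and 0.90 in the RA libraries and 1.32, 1.34, 1.23 and 0.77 in the PB libraries, against 1.56, 1.75, 1.74 and 1.73 in the DMSO libraries. All 12 treated libraries lay below the lowest DMSO library, and the RA group had the lowest mean. Of the 10 BDNF regions, 3 had a peak only in DMSO libraries and entered the region set through that group. Their treated values were all at no peak, so part of each fall and of this separation was fixed in advance. BDNF fell by 0.83 with RA (SE 0.14, adjusted p = 0.00046), as 4.91% of genes did, by 0.68 with PB + RA (SE 0.14, adjusted p = 0.0010), as 16.2% of genes did, and by 0.53 with PB (SE 0.14, adjusted p = 0.018), as 10.6% of genes did. The difference was -0.86 and -0.81 within replicates 1 and 2 and within 3 and 4 for RA, -0.67 and -0.68 for PB + RA, and -0.33 and -0.73 for PB. Over regions with a peak in at least 4 libraries, which leaves out the 3 regions with a peak only in DMSO, the PB difference did not pass (-0.45, adjusted p = 0.11). The RA and PB + RA differences did. The PB difference also did not pass without PB replicate 4 (-0.40, adjusted p = 0.056) or DMSO replicate 2 (-0.51, adjusted p = 0.054). With only the peaks of a -log10 q of at least 5 none of the 3 differences passed (-0.51 with PB + RA, -0.69 with RA and -0.43 with PB, adjusted p of 0.091 to 0.27).

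The 3 treated groups were not separated from each other at BDNF. PB + RA minus RA was 0.15 (SE 0.14, adjusted p = 0.45), PB + RA minus PB was -0.15 (SE 0.14, adjusted p = 0.55) and RA minus PB was -0.31 (SE 0.14, adjusted p = 0.12). The interaction, the effect of PB in the presence of RA minus its effect in DMSO, was 0.68 (SE 0.19) with an unadjusted p of 0.0021 but an adjusted p of 0.14. The 3 regions with a peak only in DMSO libraries gave 0.65 to 0.79 here, as all their treated values were at no peak. Of all genes 0.18% had a positive and 0.02% a negative interaction that passed, and of the 4 members none did.

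**Figure D1:**
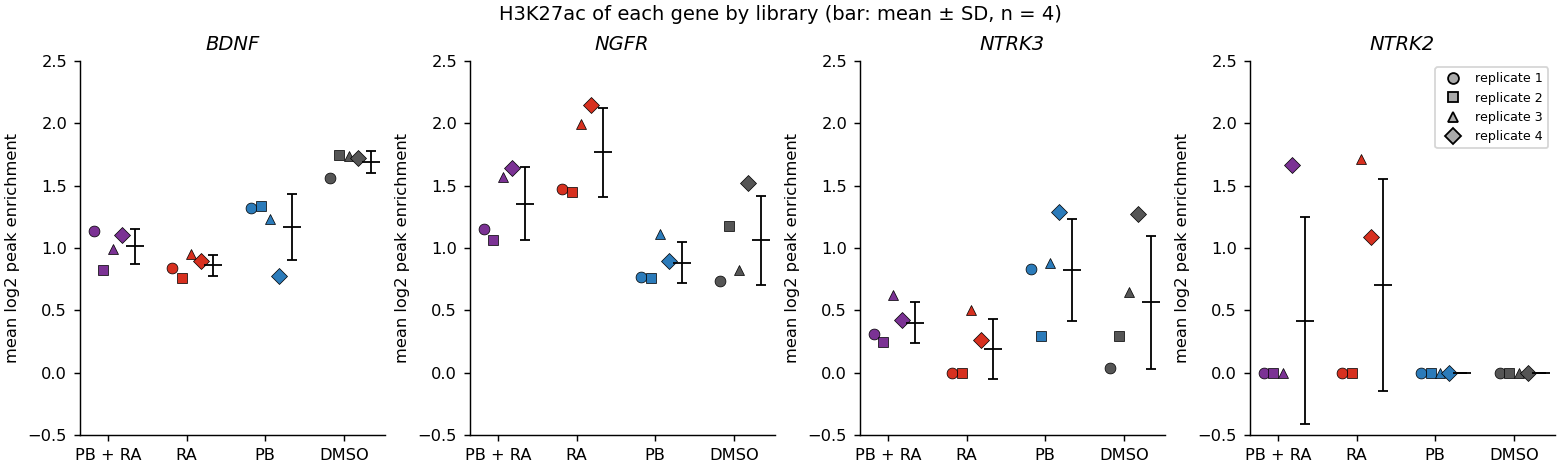
The y axis is the mean log2 peak enrichment over a gene's regions, where 0 means no peak in any of them. Each symbol is 1 library, the bars are mean ± SD (n = 4). BDNF values of the treated groups all lie below the lowest DMSO value of 1.56, NGFR values are highest with RA, and NTRK2 is above 0 in 3 libraries.

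The length of BDNF chromatin under peaks was also lower with RA. Peaks covered 13.2, 8.19, 12.7 and 13.1 kb of the BDNF regions in PB + RA libraries, 8.90, 8.09, 10.8 and 9.98 kb in RA libraries and 14.8, 16.3, 15.9 and 9.60 kb in PB libraries, against 15.8, 19.1, 18.4 and 18.1 kb in DMSO libraries. The RA and PB + RA ranges did not overlap the DMSO range, whereas 2 PB libraries reached into it. Means were 11.8 ± 2.41 kb with PB + RA, 9.44 ± 1.18 kb with RA and 14.1 ± 3.09 kb with PB, against 17.8 ± 1.42 kb in DMSO (SD, n = 4). In two-sided exact permutation tests, of which 12 were made over the genes and contrasts, p was 0.029 for RA and for PB + RA, the smallest that 70 arrangements allow, and 0.086 for PB.

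**Figure D2:**
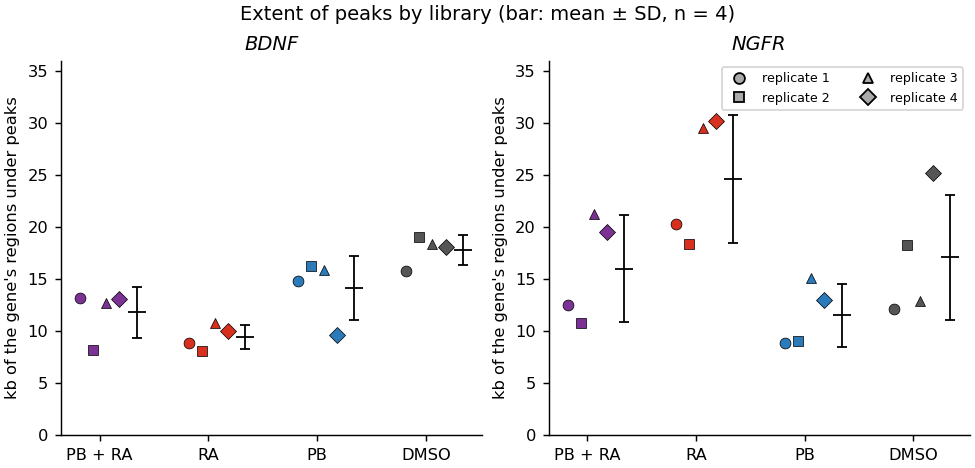
The y axis is the length of a gene's regions, in kb, that lay under peaks, for BDNF on the left and NGFR on the right. Each symbol is 1 library and the bars are mean ± SD (n = 4). BDNF falls to 9.44 kb on average with RA against 17.8 kb in DMSO, and NGFR averages 24.6 kb with RA against 17.1 kb in DMSO, with overlapping libraries.

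The regions of BDNF differed in their response. With RA, 6 of 10 were called lower and 0 higher, against 6.15% lower and 8.51% higher over all regions. With PB + RA 6 of 10 were lower and 0 higher (12.2% and 17.3% over all regions), and with PB 2 of 10 were lower and 0 higher (4.36% and 2.88%). These calls include chr11:27709743-27710109 with each treatment and chr11:27682511-27682927 with PB + RA. Only DMSO libraries had a peak in either, so a fall was the only change possible there. The regions also overlap the lncRNA gene BDNF-AS downstream and a second lncRNA gene upstream, and H3K27ac carries no strand.

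The central promoter region (chr11:27720123-27723445), centred 21.8 kb inside the gene, covers 5 start sites of 8 protein-coding transcripts and was called lower with all 3 treatments. Its enrichment was 2.04, 1.78, 2.01 and 3.03 in PB + RA libraries, 1.69, 2.38, 3.66 and 4.16 in RA libraries and 1.68, 2.45, 3.27 and 2.15 in PB libraries, against 4.10, 4.66, 9.02 and 5.57 in DMSO libraries. Only RA replicate 4 reached the DMSO range. The region fell by 1.36 with PB + RA (SE 0.28, adjusted p = 0.00036; -1.2 and -1.52 within the 2 sets), by 1.26 with PB (SE 0.28, adjusted p = 0.00525; -1.11 and -1.42) and by 0.99 with RA (SE 0.28, adjusted p = 0.013; -1.12 and -0.86). With GC content corrected for, the PB difference was -0.87 (adjusted p = 0.074). The RA call was lost without DMSO replicate 3 (adjusted p = 0.072) or without RA replicate 1 (adjusted p = 0.087).

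The upstream promoter region (chr11:27738386-27741723), with 1 start site and centred 3.55 kb inside the gene, was called in no contrast. It does not hold the most 5′ promoters of BDNF, which lie in no deposited region. It had the highest enrichment of the 10 in every group, at 15.8, 10.6, 8.19 and 9.72 in PB + RA libraries, 9.78, 8.73, 7.29 and 7.57 in RA libraries and 8.82, 10.2, 6.29 and 3.64 in PB libraries, against 7.57, 10.8, 10.3 and 9.01 in DMSO libraries. The groups overlapped, and the differences were 0.20 with PB + RA, -0.17 with RA and -0.47 with PB (SE 0.26 each, adjusted p = 0.59, 0.74 and 0.26). Just 5′ of the gene, the region chr11:27743837-27744736, 232 bases upstream, was called lower with PB + RA, at 1, 1, 1.44 and 1.65 against 1.75, 2.06, 4.26 and 4.56 in DMSO libraries (-1.22, SE 0.33, adjusted p = 0.0056). This call was lost after GC correction (-0.73, adjusted p = 0.087), by the height of the strongest peak (-1.03, adjusted p = 0.092) and with only the peaks of a -log10 q of at least 5 (-1.07, adjusted p = 0.13).

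At the downstream promoter only RA gave a call against DMSO. In this region (chr11:27679056-27682008), centred 63.1 kb inside the gene, enrichment was 4.84, 3.33, 3.63 and 3.32 in PB + RA libraries, 2.56, 1.69, 2.22 and 1.99 in RA libraries and 6.34, 5.78, 3.34 and 3.33 in PB libraries, against 4.54, 5.41, 5.35 and 3.81 in DMSO libraries. Every RA library lay below every library of the other groups. The region fell by 1.18 with RA (SE 0.24, adjusted p = 0.00076; -1.25 and -1.10 within the 2 sets), and the differences of -0.34 with PB + RA and -0.07 with PB were not called. PB + RA minus RA was 0.84 here (SE 0.24, adjusted p = 0.022), a call as higher (7.53% of all regions were called higher and 4.55% lower in this contrast), and RA minus PB was -1.10 (SE 0.24, adjusted p = 0.0013, where 11.2% of all regions were called higher and 7.48% lower).

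Beyond the 3′ end, 7699 bases downstream of the gene, the region chr11:27666908-27668741 showed the same order. Its enrichment was 2.85, 1.58, 2.02 and 2.51 in PB + RA libraries, 1.29, 1.16, 1.74 and 1 in RA libraries and 3.87, 3.66, 3.23 and 2.56 in PB libraries, against 3.64, 3.38, 3.90 and 3.01 in DMSO libraries. RA libraries were again below those of DMSO without overlap, and the PB libraries overlapped the DMSO libraries. It fell by 1.45 with RA (SE 0.25, adjusted p = 6.6e-05) and by 0.66 with PB + RA (SE 0.25, adjusted p = 0.039, lost in 5 of 16 fits that left out 1 library), while the difference with PB was -0.07 (adjusted p = 0.99). PB + RA minus RA was 0.78 (SE 0.25, adjusted p = 0.033). The interaction was 0.91 and 0.86 in these 2 regions and was not called (adjusted p = 0.33 and 0.36), as in all 21, where 0.0195% of all regions were called higher and 0.00977% lower. By the height of the strongest peak, the differences at 75.8 kb were -0.82 with RA and -0.26 with PB + RA and not called (adjusted p = 0.079 and 0.55). With only the peaks of a -log10 q of at least 5, the RA and PB + RA differences there were 0.

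The remaining BDNF regions lay inside or beyond the gene body. The regions centred 67.9 kb (chr11:27672782-27678571) and 47.3 kb (chr11:27693845-27698685) inside the gene were lower with RA by 0.91 and 1.12 in log2 size, with group means of 2.18 and 1.35 in RA against 4.03 and 2.92 in DMSO, and the second was also called lower with PB + RA. The call of the first with RA was lost without RA replicate 4 (adjusted p = 0.066), and that of the second with PB + RA without DMSO replicate 2 (adjusted p = 0.090). By the height of the strongest peak neither was called, with -0.28 at 67.9 kb (adjusted p = 0.33) and -0.81 at 47.3 kb (adjusted p = 0.081) with RA, and -0.04 at 47.3 kb with PB + RA (adjusted p = 0.99). Of 3 short regions of 367 to 490 bp with a peak only in 2 or 3 DMSO libraries, that at chr11:27709743-27710109 was called lower with each treatment by 0.79. The PB call was lost in 15 of 16 fits that left out 1 library and the RA call in 6, and none of the 3 calls held after GC correction (-0.51 with PB + RA, -0.71 with RA and -0.52 with PB, adjusted p = 0.16, 0.059 and 0.28) or with the 8 libraries of the 2 groups alone (adjusted p = 0.088, 0.14 and 0.22). The call at chr11:27682511-27682927, lower with PB + RA only, was lost in 14.

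**Figure D3:**
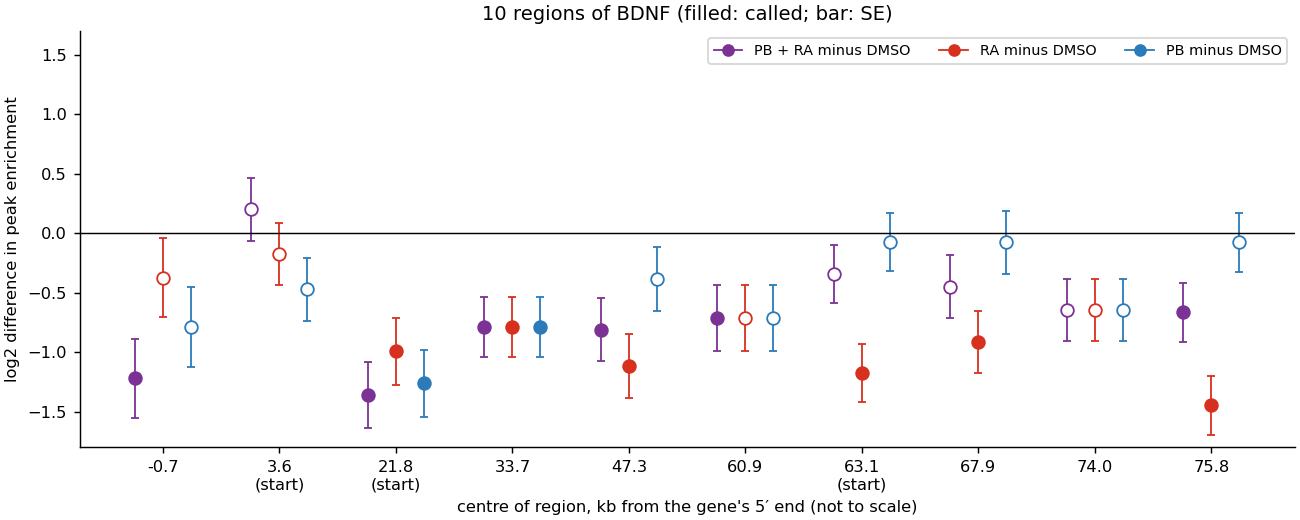
Each position on the x axis is 1 BDNF region, in order of the distance of its centre from the gene's 5′ end in kb, and the y axis is the log2 difference in peak enrichment against DMSO with its SE. Filled symbols were called. The region at 21.8 kb is lower with all 3 treatments, the start site region at 3.55 kb is called with none, and at 63.1, 67.9 and 75.8 kb RA lies well below PB.

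NGFR gained H3K27ac with RA. The gene value was 1.15, 1.06, 1.57 and 1.64 in PB + RA libraries, 1.48, 1.45, 2.00 and 2.15 in RA libraries and 0.76, 0.76, 1.11 and 0.89 in PB libraries, against 0.74, 1.17, 0.82 and 1.52 in DMSO libraries. The RA group had the highest values, although DMSO replicate 4 and PB + RA replicates 3 and 4 exceeded RA replicates 1 and 2, and every RA library was above every PB library. NGFR rose by 0.71 with RA (SE 0.20, adjusted p = 0.024; 0.51 and 0.90 within the 2 sets), as 7.18% of genes did. The differences of 0.29 with PB + RA (SE 0.20, adjusted p = 0.27) and -0.18 with PB (SE 0.20, adjusted p = 0.59) did not pass. RA minus PB was 0.89 (SE 0.20, adjusted p = 0.0043; 0.70 and 1.07 within the 2 sets). The RA difference lost its call without RA replicate 3 or 4 or without DMSO replicate 1 or 3 (0.58 to 0.63, adjusted p of 0.063 to 0.084), and with only the peaks of a -log10 q of at least 5 (0.43, adjusted p = 0.15). With GC content corrected for, the PB + RA difference passed (0.65, adjusted p = 0.0093).

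The NGFR regions called with RA lay upstream of the gene. At chr17:47546163-47550800, centred at -24.2 kb from the 5′ end of NGFR, enrichment was 3.09, 2.29, 3.27 and 3.27 in PB + RA libraries, 2.39, 2.48, 3.62 and 3.58 in RA libraries and 1.40, 1.95, 1.83 and 1.34 in PB libraries, against 1, 1.18, 1.23 and 1.93 in DMSO libraries. Both groups given RA stood clear of both groups without it. The region rose by 1.2 with RA (SE 0.26, adjusted p = 0.0012; 1.17 and 1.23 within the 2 sets) and by 1.19 with PB + RA (SE 0.26, adjusted p = 0.00068; 1.30 and 1.08), and the PB difference of 0.31 was not called (adjusted p = 0.51). PB + RA minus PB was also called, at 0.88 (SE 0.26, adjusted p = 0.019), where 10.6% of all regions were called higher and 3.61% lower, and it was the only member region called in that contrast. By the height of the strongest peak the PB + RA difference was 0.77 (adjusted p = 0.059). With only the peaks of a -log10 q of at least 5 both calls against DMSO were lost, at 0.92 with RA (adjusted p = 0.40) and 0 with PB + RA. The region also overlaps a lncRNA gene.

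A second upstream region, chr17:47558710-47560820, centred at -12.9 kb, was called with RA but not with PB + RA. Its enrichment was 1, 1.5, 1.82 and 2.31 in PB + RA libraries, 1.76, 2.46, 2.91 and 3.41 in RA libraries and 1, 1, 1.52 and 1 in PB libraries, against 1, 1.44, 1 and 1.17 in DMSO libraries. RA libraries were above all DMSO libraries, and PB + RA libraries spanned both. It rose by 1.17 with RA (SE 0.30, adjusted p = 0.0056; 0.79 and 1.54 within the 2 sets), and PB + RA gave 0.47 (adjusted p = 0.22). By the height of the strongest peak the RA difference was 1.11 and not called (SE 0.49, adjusted p = 0.16), and with only the peaks of a -log10 q of at least 5 it was 0. These were the only 2 of 6 NGFR regions called with RA, both higher, against 8.51% of all regions. The gene body region chr17:47589015-47595040 had the highest mean enrichment of the 6 in DMSO, at 4.78, and 4.81 with RA. Its differences of -0.14 with PB + RA, 0.02 with RA and -0.28 with PB were not called.

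The upstream region nearest to the gene, chr17:47563134-47567370, centred at -7.4 kb, had a peak in every library. Its enrichment was 2.41, 1.58, 3.17 and 2.01 in PB + RA libraries, 2.45, 1.61, 3.31 and 3.52 in RA libraries and 2.00, 1.17, 1.48 and 2.11 in PB libraries, against 1.13, 1.63, 1.25 and 2.62 in DMSO libraries. The groups overlapped, and the differences of 0.50 with PB + RA, 0.74 with RA and 0.07 with PB were not called (SE 0.30 each, adjusted p = 0.19, 0.090 and 1), with 0.55 and 0.92 within the 2 sets for RA.

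The region over the 3 NGFR start sites (chr17:47571757-47579744) had a peak in every library. Its enrichment was 3.89, 3.43, 4.40 and 7.59 in PB + RA libraries, 4.16, 3.59, 7.16 and 9.28 in RA libraries and 2.14, 2.24, 3.87 and 3.14 in PB libraries, against 2.87, 3.16, 2.98 and 4.53 in DMSO libraries. RA replicates 3 and 4 were well above the DMSO libraries and RA replicates 1 and 2 were not. The RA difference of 0.75 was not called (SE 0.28, adjusted p = 0.065; 0.36 and 1.15 within the 2 sets), and RA minus PB was called at 1.02 (SE 0.28, adjusted p = 0.0088; 0.82 and 1.23).

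Downstream, the region chr17:47595921-47606590 at the 3′ end of NGFR, which overlaps NGFR-AS1, was called lower in both groups given PB. Enrichment was 1.02, 1.23, 1.88 and 1.52 in PB + RA libraries, 2.65, 2.48, 3.72 and 3.22 in RA libraries and 1.11, 1.24, 1.62 and 1.14 in PB libraries, against 1.83, 2.82, 1.60 and 3.50 in DMSO libraries. Libraries given PB were mostly below the DMSO libraries, with an overlap, and the RA libraries were within or above the DMSO range. The calls against DMSO, -0.88 with PB (SE 0.28, adjusted p = 0.047) and -0.75 with PB + RA (SE 0.28, adjusted p = 0.040), were lost in 11 and 4 of 16 fits without 1 library, while PB + RA minus RA was -1.11 (SE 0.28, adjusted p = 0.0086; -1.19 and -1.03 within the 2 sets) and RA minus PB 1.24 (SE 0.28, adjusted p = 0.0015). By the height of the strongest peak in place of the mean over the region, the PB difference was 0.04 and not called. SOX10, a Schwann cell and neural crest factor, had a start site peak in 0 PB + RA, 4 RA, 0 PB and 3 DMSO libraries, and its part in these differences was not tested.

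**Figure D4:**
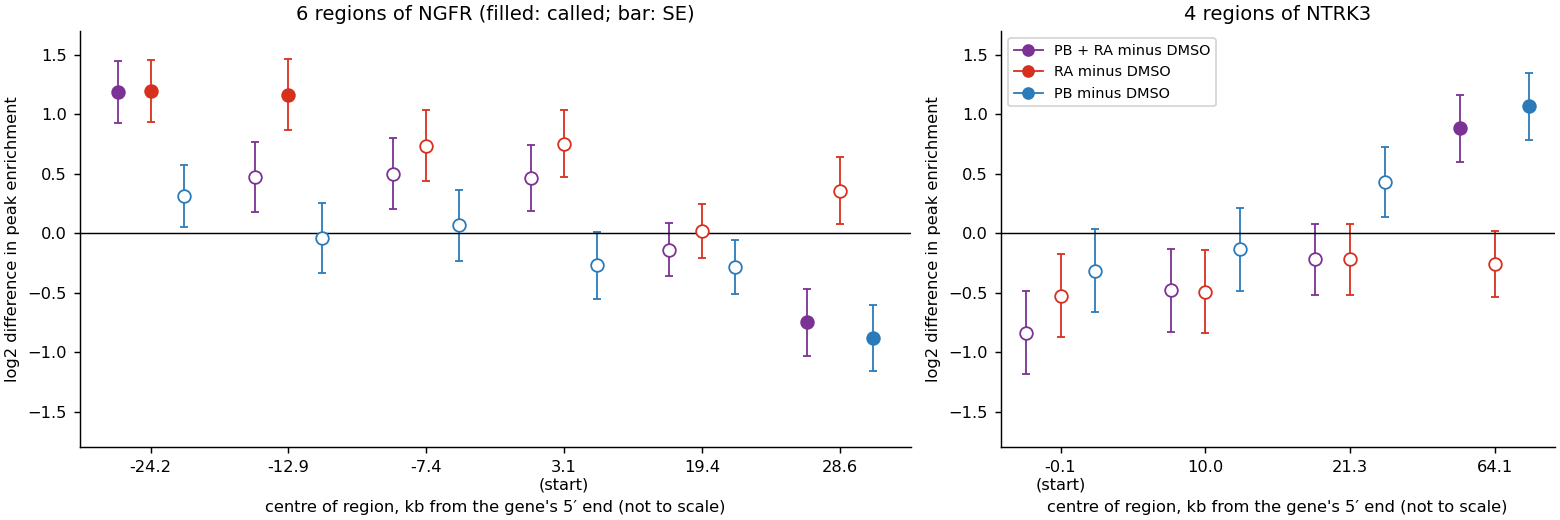
Regions of NGFR (left) and NTRK3 (right) stand in order of the distance of their centres from the gene's 5′ end in kb, with the log2 difference in peak enrichment against DMSO and its SE on the y axis. Filled symbols were called. NGFR regions at -24.2 and -12.9 kb are higher with RA, and the NTRK3 region at 64.1 kb is higher in both groups given PB.

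NTRK3, the TrkC gene, had low values, and no difference in its gene value passed. The gene value was 0.31, 0.25, 0.62 and 0.42 in PB + RA libraries, 0, 0, 0.50 and 0.26 in RA libraries and 0.84, 0.30, 0.88 and 1.29 in PB libraries, against 0.04, 0.29, 0.65 and 1.27 in DMSO libraries. DMSO libraries alone spanned nearly the whole range. Differences were -0.16 with PB + RA, -0.37 with RA and 0.26 with PB (SE 0.24 each, adjusted p = 0.63, 0.37 and 0.51), and RA minus PB was -0.64 (SE 0.24, adjusted p = 0.069; -0.57 and -0.71 within the 2 sets).

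Within the gene, 1 intron region set the groups apart. At chr15:88735092-88736749, centred 64.1 kb inside NTRK3, enrichment was 2.36, 2.00, 2.22 and 2.25 in PB + RA libraries, 1 in all 4 RA libraries and 3.58, 2.27, 2.28 and 2.12 in PB libraries, against 1, 1, 1 and 2.03 in DMSO libraries. Peaks were thus present in all 8 libraries given PB and in 1 of 8 without it. The region entered the region set through the groups given PB, so part of this separation and of the rises was fixed in advance. The region rose by 1.07 with PB (SE 0.28, adjusted p = 0.016; 1.51 and 0.62 within the 2 sets) and by 0.88 with PB + RA (SE 0.28, adjusted p = 0.016; 1.12 and 0.65), and PB + RA minus RA was 1.14 (SE 0.28, adjusted p = 0.0072). The PB call was lost without DMSO replicate 2 (adjusted p = 0.057) or PB replicate 1 (adjusted p = 0.080), and the PB + RA call without DMSO replicate 2 (adjusted p = 0.052). With the 8 libraries of the 2 groups alone the PB difference was not called (adjusted p = 0.064). The peaks here were weak: with only the peaks of a -log10 q of at least 5, NTRK3 had 0 kb under peaks in all 16 libraries and the region differed by 0 in both contrasts. It was the only NTRK3 region of 4 called, against 2.88% of all regions called higher with PB and 17.3% with PB + RA.

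Over its 8 start sites (chr15:88798674-88801489), a region shared with NTRK3-AS1, NTRK3 had 1, 1, 1.30 and 1.43 in PB + RA libraries, 1, 1, 2.11 and 2.08 in RA libraries and 1.36, 1, 2.47 and 2.34 in PB libraries, against 1.12, 1.56, 3.29 and 3.28 in DMSO libraries. Replicates 3 and 4 exceeded 1 and 2 in every group, a gap as wide as that between groups. The differences of -0.84 with PB + RA, -0.53 with RA and -0.32 with PB were not called (SE 0.35 each, adjusted p = 0.064, 0.33 and 0.67). Within the 2 sets the PB + RA difference was -0.40 and -1.27. The other 2 intron regions, at 10.0 and 21.3 kb, had peaks in 7 and 3 of 16 libraries and were not called.

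NTRK2, the TrkB gene, was almost without H3K27ac. Its 1 region, chr9:87283250-87283746, is 497 bp long and covers 10 start sites of 19 protein-coding transcripts. Enrichment was 1, 1, 1 and 3.17 in PB + RA libraries and 1, 1, 3.29 and 2.12 in RA libraries, against 1 in all 4 PB and all 4 DMSO libraries. The 3 libraries with a peak had all received RA. The region entered the region set through the RA group, so part of this was fixed in advance. The differences of 0.70 with RA (SE 0.37, adjusted p = 0.26) and 0.42 with PB + RA (SE 0.37, adjusted p = 0.41) did not pass, and no peak was found in replicates 1 and 2 of any group. NTF3 had no region, and 1 peak of 140 bp in PB replicate 4 was the only one near it in the 16 libraries.

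The authors' group mean concentrations, which count reads in each region on a log2 scale and come without an SD or n, were read alongside. For BDNF the authors' mean was lower than in DMSO by more than 0.5 at 7 of 10 regions with PB + RA (31.7% of all regions), at 8 with RA (21.5%) and at 5 with PB (26.8%), and higher by as much at none. The short regions with a peak only in DMSO libraries are among those lower with each treatment. In the central promoter region it was 6.22 with PB + RA, 6.73 with RA and 6.26 with PB, against 7.86 in DMSO, and in the upstream promoter region 8.85, 8.52 and 8.30 against 8.60. In the downstream promoter region the values were 7.23 with PB + RA, 6.13 with RA and 7.38 with PB, against 7.48 in DMSO, so that RA was the lowest by more than 1 unit.

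For NGFR the authors' mean was higher than in DMSO by more than 0.5 at 3 of 6 regions with PB + RA (32.1% of all regions) and at 3 with RA (27.9%), namely the upstream regions at -24.2 and -12.9 kb and the start site region, and at 0 with PB (21%). The start site region had 8.97 with PB + RA, 9.16 with RA and 7.91 with PB, against 8.35 in DMSO. Of the 4 NTRK3 regions, 3 were lower by more than 0.5 with PB + RA (31.7% of all regions), 4 with RA (21.5%) and 2 with PB (26.8%), where 1 was higher (21%). The intron region at 64.1 kb had 5.38 with PB + RA, 4.26 with RA and 5.66 with PB, against 4.89 in DMSO. NTRK2 had 3.12 with PB + RA, 3.63 with RA and 1.66 with PB, against 2.29 in DMSO, among the lowest concentrations of the 21 regions. The median difference over the 21 regions was -0.78 with PB + RA, -0.78 with RA and -0.37 with PB, where that over all regions was -0.02, -0.01 and -0.09.

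**Figure D5:**
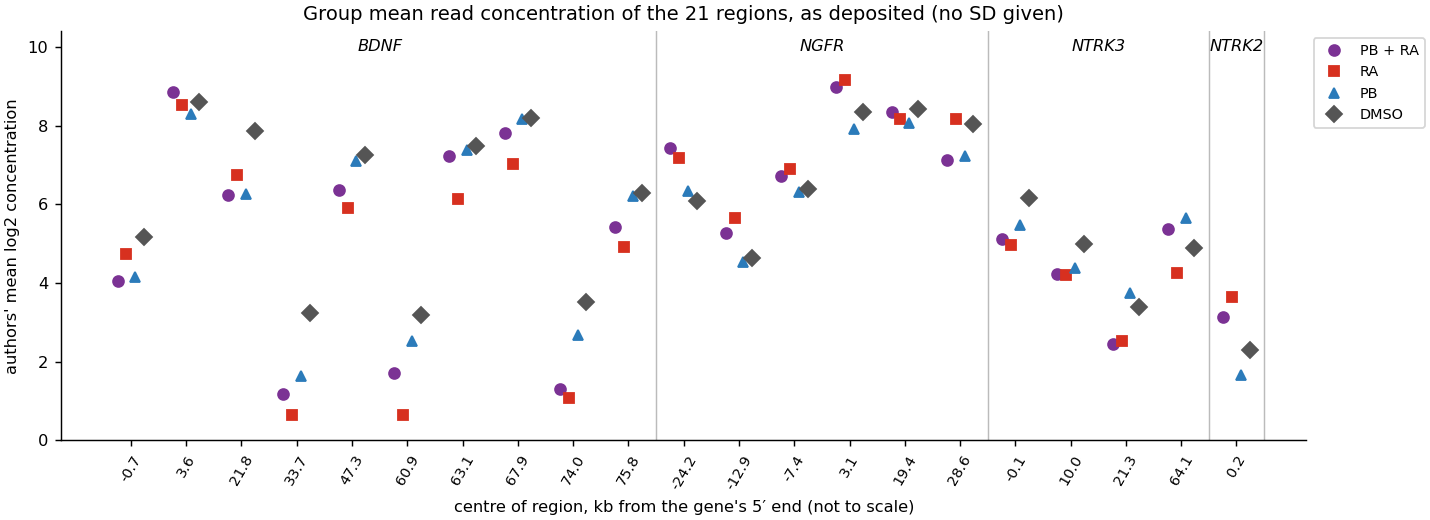
The y axis is the authors' mean log2 concentration of each group, without error, and the x axis holds the 21 regions by gene, with the distance of each centre from the gene's 5′ end in kb. In the BDNF region at 21.8 kb all treated groups lie below the DMSO value of 7.86, and at 63.1 kb only RA, at 6.13, is far below.

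Across the 4 genes, the gene value of BDNF passed as lower with RA, PB and PB + RA, and that of NGFR as higher with RA. No other of the 12 differences from DMSO passed. With only the peaks of a -log10 q of at least 5 none of these passed. BDNF with PB and NGFR with RA also did not pass when some single libraries were left out. Between treatments, 0 of the 4 passed in PB + RA minus PB (12.1% of genes higher, 1.59% lower), 0 in PB + RA minus RA (7.4% and 7.51%) and NGFR alone, as higher, in RA minus PB (15.7% and 4.03%). Of the 21 regions, 2 were called higher and 7 lower with PB + RA (17.3% and 12.2% of all regions), 2 higher and 6 lower with RA (8.51% and 6.15%), and 1 higher and 3 lower with PB (2.88% and 4.36%). BDNF regions with a peak only in DMSO libraries are among those called lower. The members' regions were wider than the rest, with a median of 2816 bp against 1728 bp over all regions, and richer in GC, at 54.9% against 47.1%. BDNF has more regions than most genes, as 12.6% of the genes with a region have 10 or more.

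The genes whose values followed each member most closely over the 16 libraries, among 8158 genes with at least 3 regions, were KCNAB2, CYB5A and ENHO for BDNF (Pearson r 0.95 to 0.96), LAPTM4A, CALML3 and VSIR for NGFR (0.94 to 0.96), GLRX, RETREG1 and TMEM229B for NTRK3 (0.84 to 0.87) and SP6, CDH3 and SYT13 for NTRK2 (0.86 to 0.90). These correlations describe libraries that share treatments and peak calling, and carry no test.

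Of 40 other genes of neurotrophin signalling, 38 had a region. With PB + RA 11 passed as higher and 6 as lower, where 17% and 16.2% of all genes did; with RA 4 were higher and 2 lower (7.18% and 4.91%), and with PB 0 were higher and 6 lower (1.56% and 10.6%). The list's median difference was 0.18 with PB + RA, 0.13 with RA and -0.05 with PB, beside -0.03, 0 and -0.16 over all genes.

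Among receptors and co-receptors, SORT1, the co-receptor of p75NTR for uncleaved neurotrophins, was higher with PB + RA (0.82, SE 0.17, adjusted p = 0.0010). LINGO1 and RTN4R, which form the Nogo receptor complex with p75NTR, were lower with PB + RA (-0.82 and -0.93) and with PB (-0.75 and -0.78). KIDINS220, a scaffold bound by Trk receptors and p75NTR, was higher with PB + RA (0.41, adjusted p = 0.021).

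Among adaptors, MAGED1 and TRAF6, which bind p75NTR, were higher with PB + RA by 0.57 and 1.28 (adjusted p = 0.012 and 0.018), as were the Trk effectors SHC3, GAB1 and PIK3R1 by 0.35 to 0.43. GRB2 and GAB2, which link activated receptors to Ras and PI3K signalling, were higher with PB + RA (0.45 and 0.64) and with RA (0.40 and 0.45). RAPGEF1, an activator of Rap1, was lower with all 3 treatments, by 0.53 with PB + RA, 0.48 with RA and 0.49 with PB (SE 0.15 each). PLAT, the tissue plasminogen activator that starts the cleavage of proBDNF by plasmin, was higher with RA (0.72, SE 0.17, adjusted p = 0.0095).

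Among genes induced by neurotrophin signalling, ARC, an immediate early gene of synapses, was lower with PB + RA by 0.99 (SE 0.21, adjusted p = 0.0015) and, just past the threshold, with RA and PB (-0.64 each, adjusted p = 0.0496 and 0.0498). NR4A1 was lower with PB + RA by 0.74 (adjusted p = 0.0085) and with PB by 0.67 (adjusted p = 0.034). DUSP6, the phosphatase that ends ERK signalling, was higher with PB + RA by 1.03 (SE 0.10, adjusted p = 1.9e-06) and with RA by 1.30 (SE 0.10, adjusted p = 6.8e-07), and its PB difference of 0.24 did not pass (adjusted p = 0.13). EGR1, FOS and VGF passed in none of the 3 contrasts.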

How the data were processed

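H3K27ac ChIP-seq libraries of SK-N-BE(2)C cells (16 ChIP, each with an input) had been trimmed, aligned to hg19 and peak-called by the authors; the submitters' processing notes name fastp 0.12.4, Bowtie2 2.4.4, MACS2 2.2.7.1 and DiffBind 3.4. The deposited broad peak lists give for each library a fold enrichment (a ratio over background) and a -log10 q value, which the authors obtained with MACS2. The deposited region table holds 92108 regions with a log2 concentration per group, which the authors averaged over replicates in DiffBind. That table's fold changes, p-values and false discovery rates are the authors' own comparisons and were not used.

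Peak enrichment was averaged over each region's bases (1 under no peak), log2-transformed and fitted with limma 3.58.1 (R 4.3.3; trend, robust; all 16 libraries; Benjamini-Hochberg over all regions or over 15005 genes). The fit was tested on simulated data, where it called few of the smaller and most of the larger changes. Lengths under peaks were compared by two-sided exact permutation tests. Regions were assigned within 100 kb of a GENCODE start site, and 72309 had a gene. Named were all members, the listed pathway genes that passed (a few, which the counts include, are not reported here), and the 3 genes most alike to each member. The members and lists were chosen with earlier results of these data known. The alternatives were quantile normalization, centring within 10 classes of GC content (the GC correction), stricter peaks, the highest peak, other values for bases under no peak, a filter on peak number, the 2 groups alone, a replicate block and leaving out each library. Read depth is unknown, so no counting interval is given; p-values measure the spread between the replicates of 1 cell line.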

Additional observations from a re-analysis of the deposited data

Results flagged for a closer look

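Of 32 sets of 4 libraries examined, 4 held a library far from the other 3. Each gene and group was examined both by gene value and by length under peaks, which are not independent. With many NTRK2 values at no peak as well, the nominal rate of about 1 in 20 does not apply here. NTRK2 in PB + RA replicate 4 had a gene value of 1.66, while the other 3 PB + RA libraries were at 0, and its region had 0.479 kb under a peak there and none in the other 3. PB + RA replicate 2 had 8.19 kb of BDNF under peaks, against 12.7 to 13.2 kb in the other 3. DMSO replicate 1 had a BDNF gene value of 1.56, against 1.73 to 1.75 in the other 3 DMSO libraries, and was still above every treated library.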

How the results depend on the processing

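With only peaks of a -log10 q of at least 5, the counts of member regions called higher and lower were 0 and 1 with PB + RA, 1 and 2 with RA, and 0 and 1 with PB; this fit over regions was made without robust estimation, which could not be fitted there. BDNF was then -0.51 with PB + RA (-5.17 kb under peaks, exact permutation p = 0.11), -0.69 with RA and -0.43 with PB, and NGFR 0.43 with RA, none of them passing. By the highest peak, 2 regions were lower with PB + RA and 3 with RA, and NGFR with RA was 0.51. With the 8 libraries of 2 groups alone, 3 regions were lower with PB + RA, 0 higher and 1 lower with PB, BDNF with PB was -0.53 and NGFR with RA 0.71, neither passing. After GC correction, 6 regions were higher with PB + RA, 4 with RA, and 0 lower with PB, and with PB + RA NGFR (0.65) and NTRK2 (0.91) passed. Of the PB + RA and DMSO libraries only PB + RA replicate 4 had an NTRK2 peak. The centring also moves values at no peak, so the NTRK2 pass does not show a gain of H3K27ac. BDNF with PB was -0.45 over regions with a peak in at least 4 libraries, and NGFR with RA 0.74 over regions within 10 kb of a start site, neither passing. The NGFR region chr17:47595921-47606590 was 0.025 with PB under the stricter peaks and 0.044 by the highest peak. With replicates 1 and 2 against 3 and 4 as a term, a choice made after seeing the data, 4 regions were higher with RA. The causes were not tested.

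The main fit did not pair the samples by replicate number. The 24 same-numbered pairs correlated at -0.08 to 0.24 (median 0.12), with 13 over 0.1, against a median of -0.09 over the 72 other pairs. Of 16 libraries, 8 correlated best with their own number. Over the 26508 regions with a peak in all 16 libraries, same-numbered pairs correlated at -0.19 to 0.48, with 18 of 24 over 0.1. The medians there were 0.21 for same-numbered and -0.14 for other pairs. With a replicate block, 4 member regions were called higher with RA, among them the NGFR regions at its start sites (0.75, adjusted p = 0.015) and at -7.4 kb (0.74, adjusted p = 0.0495). The NTRK3 start site region was called lower with PB + RA (-0.84, adjusted p = 0.018), and NTRK3 passed as lower in RA minus PB (-0.64, adjusted p = 0.022). The block with GC correction was chosen after seeing the data. It gave 6 regions higher with PB + RA, 4 with RA and 3 with PB. NTRK3 with PB (0.69), NGFR with PB + RA (0.65) and NTRK2 with PB + RA (0.91) passed there, the last with the same limit of values at no peak.

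Leaving out 1 library gave 1 to 2 higher and 4 to 7 lower regions with PB + RA, 2 to 4 and 4 to 7 with RA, and 0 to 1 and 1 to 4 with PB. BDNF ranged from -0.72 to -0.62 with PB + RA, -0.88 to -0.80 with RA and -0.59 to -0.40 with PB, and NGFR with RA from 0.58 to 0.86. Over all regions, 15964 were higher and 11282 lower with PB + RA, 7836 and 5664 with RA, and 2650 and 4020 with PB. The stricter peaks gave 3350 and 2981 with PB + RA, 1333 and 1678 with RA, and 339 and 1570 with PB, and with PB quantile normalization gave 5030 and 3809, GC correction 2645 and 1733, and the fit without DMSO replicate 3 2586 and 7716. NTRK2 had no value under the filter on peak number.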
